A study of Mus musculus with 12 samples.

Results

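The 32 genes described here build, coat and empty lipid droplets in heart muscle. They were chosen by symbol from the triglyceride pathway, and all 32 were found by gene identifier among the 21959 genes of the count table. By step, 15 of them make triglyceride from fatty acids and glycerol 3-phosphate, 10 coat the droplet or help it bud, and 7 serve lipolysis and glycerol release. Poly-A RNA was sequenced from the ventricles of 12 male mice, all 7 weeks old and on chow. In 6 of them Vps13c had been deleted in the heart (Vps13c-cKO), and 6 were wild type (WT). The sources used here do not name the driver of the deletion or say whether WT mice carried it, so an effect of a driver and of the deletion cannot be told apart.

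A lipid droplet is a core of triglyceride and sterol ester under a single layer of phospholipid. Acyltransferases and lipins of the endoplasmic reticulum assemble the triglyceride, seipin and FIT proteins shape the budding droplet, perilipins coat it, and lipases with their helpers break it down again. In the heart, where fatty acids are the main fuel, many of them pass through or beside this store on their way to mitochondria. VPS13C is a bridge-like lipid transfer protein that has been placed at contacts of the endoplasmic reticulum with late endosomes and lipid droplets. The comparison asks how the RNA of the droplet pathway stands when this protein is depleted.

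Libraries held 12484523 to 15562942 gene counts. Vps13c ranged from 54.6 to 68.6 CPM (read counts per library size on the usual CPM scale, with TMM factors) in WT and from 16.3 to 20.3 CPM in Vps13c-cKO. The labels give separate mice. The tissue label was checked on 10 cardiomyocyte markers, which summed to 59947.4 CPM or more in every library. In 2 libraries, genes of other tissues stood apart. WT mouse 4 held the atrial genes Myl7 at 29.3 CPM and Sln at 8.24 CPM, against at most 0.353 and 0.0706 CPM in the other 11 mice. Vps13c-cKO mouse 1 held the liver genes Alb at 239.7 CPM and Fgb at 18.5 CPM, against at most 0.777 and 0 CPM in the others. The main counts of called genes are therefore also given without these 2 mice.

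Small shifts in both directions were measured across the droplet genes, with more members lower than higher. Of the 32 members, 29 had enough counts to be tested, and 11 of these were called at an adjusted p under 0.05 (edgeR quasi-likelihood test, adjusted over 12384 genes). Plin2, Plin3, Cidea and Agpat1 rose, which is 4 members. Aqp7, Fitm2, Lpin1, Agpat3, Plin5, Pnpla2 and Plin4 fell, which is 7. The share called was 37.9% of the tested members, beside 10.7% of all tested genes (5.65% higher and 5.10% lower). Among genes with a mean of 10 CPM or more it was 44.0% of 25 members (8 of them without the 2 mice) and 13.1% of all. The log2 fold changes of the called members were between 0.17 and 0.40 in size, and the median over the 29 was -0.06, beside 0.00 over all tested genes. No test of the list as a whole was made. In whole ventricle, fewer cells of a type and less RNA per cell cannot be told apart.

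Of the called members, 6 were called under each of the 20 other settings tried, namely Plin2, Plin5, Fitm2, Aqp7, Lpin1 and Agpat3. The other 5 were lost under at least 1 of them. Leaving out WT mouse 3, or Vps13c-cKO mouse 4, left Plin2 as the single member called higher. Leaving out WT mouse 2 gave 2 higher and 5 lower, and leaving out Vps13c-cKO mouse 6 gave 2 higher and 7 lower. Without WT mouse 4 and Vps13c-cKO mouse 1 together, 2 members were higher (Plin2 and Plin3) and 6 lower, and Cidea, Agpat1 and Pnpla2 were no longer called. Leaving out Vps13c-cKO mouse 1 alone left 3 higher and 5 lower.

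**Figure D1:**
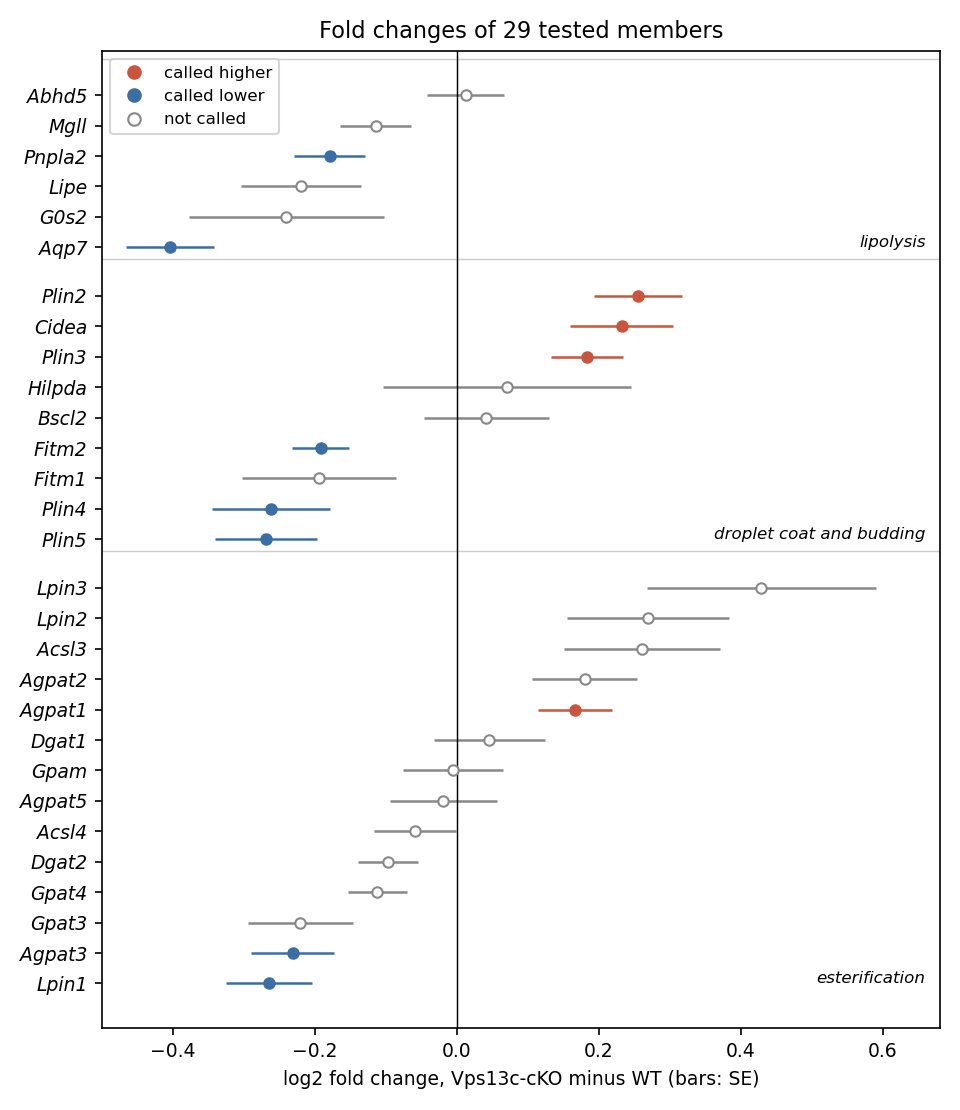
Log2 fold changes (Vps13c-cKO minus WT) of the 29 tested members, grouped by step, with standard errors as bars and filled points for called members. The droplet group holds called members on both sides of 0, and in the lipolysis group the called members, Aqp7 and Pnpla2, lie below 0.

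The perilipins, the main coat proteins of the droplet, split into a pair that rose and a pair that fell. Plin2 (ENSMUSG00000028494, chromosome 4), which coats droplets in most tissues and is degraded when it is not bound to one, ran from 47.3 CPM over a median of 50.5 to 62.8 CPM in WT. In Vps13c-cKO it ran from 56.4 over 63.1 to 68.1 CPM. A single WT mouse lay inside the Vps13c-cKO range, and 2 Vps13c-cKO mice lay inside the WT range. The log2 fold change of Plin2 was 0.26 ± 0.06 (SE, n = 6 each; edgeR adjusted p = 0.00993).

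Plin3 (ENSMUSG00000024197, chromosome 17), a cytosolic perilipin that binds small nascent droplets, had a lowest, median and highest value of 130.7, 144.1 and 151.2 CPM in WT. The same values were 140.6, 164.9 and 173.4 CPM in Vps13c-cKO, where 1 mouse lay inside the WT range, and 4 WT mice lay inside the Vps13c-cKO range. Its log2 fold change was 0.18 ± 0.05 (SE, n = 6 each; edgeR adjusted p = 0.0218), and leaving out WT mouse 3 or 5 or Vps13c-cKO mouse 2 or 4 ended this call (edgeR adjusted p of 0.0527 to 0.0670).

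Plin5 (ENSMUSG00000011305, chromosome 17), the perilipin of oxidative muscle that ties droplets to mitochondria and restrains lipolysis, moved the other way. Its lowest, median and highest values were 81.4, 89.7 and 101.0 CPM in WT and 60.4, 74.9 and 86.3 CPM in Vps13c-cKO. The groups overlapped by 1 WT mouse and 2 Vps13c-cKO mice. The log2 fold change was -0.27 ± 0.07 (SE, n = 6 each; edgeR adjusted p = 0.0172).

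Plin4 (ENSMUSG00000002831, chromosome 17), a perilipin of adipocytes and striated muscle with a long repeat helix, ran from 307.9 over 340.6 to 431.8 CPM in WT and from 228.5 over 301.6 to 339.2 CPM in Vps13c-cKO. Of each group, 3 mice lay inside the range of the other. Its log2 fold change of -0.26 ± 0.08 (SE, n = 6 each) passed narrowly (edgeR adjusted p = 0.0464), was not called by DESeq2 (adjusted p = 0.137), and was lost without WT mouse 1, 2 or 6 or Vps13c-cKO mouse 1, 2, 3 or 5 (edgeR adjusted p of 0.0602 to 0.112).

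**Figure D2:**
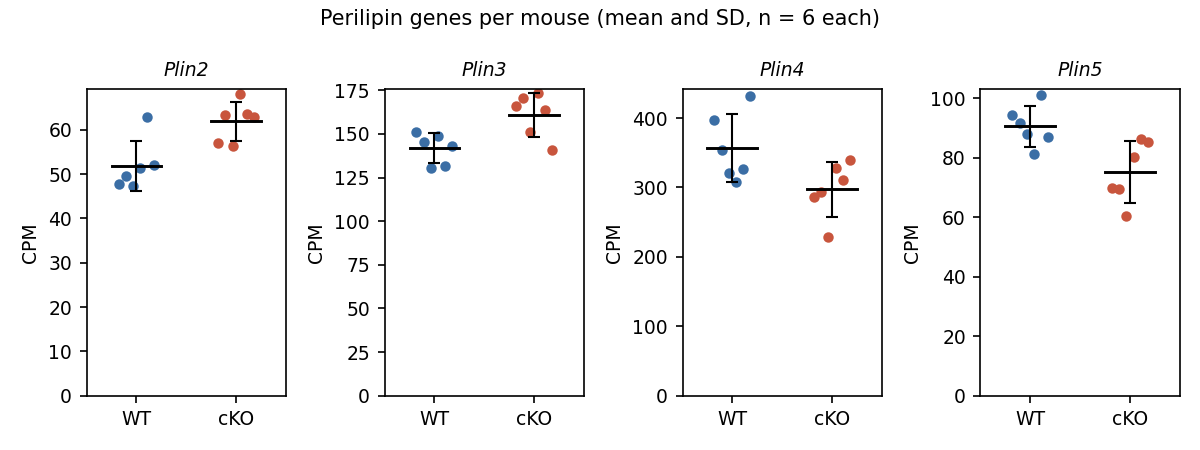
CPM of the 4 perilipin genes in each mouse (points), with mean and SD as bars, WT on the left of each panel and Vps13c-cKO on the right. Plin2 and Plin3 sit higher in Vps13c-cKO (Plin2 from 56.4 to 68.1 CPM) and Plin4 and Plin5 lower (Plin5 from 60.4 to 86.3 CPM), with some overlap of the groups in each panel.

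A ratio of counts within a library does not depend on how libraries are scaled. For 7 such ratios between members, 3 differed after adjustment over the 7. The Plin5 to Plin2 count ratio had a geometric mean of 1.75 in WT and 1.21 in Vps13c-cKO. On the log2 scale it ran from 0.66 to 0.98 in WT and from 0.10 to 0.44 in Vps13c-cKO, so the groups did not overlap. The difference was -0.54, with SDs of 0.13 and 0.15 (n = 6 each; two-sided exact permutation p = 0.00216, the smallest this design allows, adjusted p = 0.00758). Without any single mouse it also passed. The ratios were chosen with earlier results of these data known, and Plin5 and Plin2 were each called in the same mice. Their ratio is therefore no support apart from those calls. Per length of exon, Plin2 made up 9.41% ± 1.13 (SD, n = 6) of the RNA of the 4 perilipins in WT and 12.0% ± 0.561 in Vps13c-cKO, with no overlap. The share of Plin3 was 23.9% ± 1.72 and 28.9% ± 2.89, that of Plin4 39.1% ± 3.13 and 34.8% ± 2.00, and that of Plin5 27.6% ± 2.08 and 24.3% ± 1.67. These shares depend on the gene model: by the longest transcript, Plin2 stood at 15.8% in WT and 19.7% in Vps13c-cKO.

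Plin4 and Plin5 are direct neighbours on chromosome 17, and Plin3 follows 7 coding genes further on, by RefSeq gene order in GRCm38.p6. All 7 genes in between (Lrg1, Sema6b, Tnfaip8l1, Mydgf, Dpp9, Fem1a and Ticam1) were tested, and 0 were called by edgeR, DESeq2 or limma-voom, with 2, 1 and 2 at an unadjusted p under 0.05. Without WT mouse 1, edgeR called 1 of them (adjusted p = 0.0455). The log2 fold changes of the 7 ran from -0.09 ± 0.07 for Mydgf to 0.30 ± 0.15 for Sema6b (SE, n = 6 each). Sema6b and Tnfaip8l1 (0.28 ± 0.21) exceeded Plin3 in size. Their WT means were 7.21 and 1.22 CPM, and they may still differ between the genotypes. Over the whole chromosome, 9.61% of 583 tested genes were called.

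Cidea (ENSMUSG00000024526, chromosome 18), which fuses droplets by passing lipid between them and is best known from brown fat, ran from 14.9 over 16.9 to 19.7 CPM in WT. In Vps13c-cKO it ran from 17.997 over 19.8 to 22.0 CPM, with 3 mice inside the WT range. Its log2 fold change was 0.23 ± 0.07 (SE, n = 6 each; edgeR adjusted p = 0.0439), a call that DESeq2 did not make (adjusted p = 0.0518) and that was lost without any of WT mice 1 to 5 or Vps13c-cKO mice 4 to 6 (edgeR adjusted p of 0.0614 to 0.115). Its relative Cidec, which makes the single large droplet of white fat cells, had 7 counts over all WT mice and 10 over all Vps13c-cKO mice and was not tested. The defining genes of fat cells were near 0 in the same hearts: Adipoq had 18 and 13 counts per genotype, Plin1 had 4 and 17, Lep had 1 and 0, and the brown fat gene Ucp1 had 2 and 0. Of the 9 white fat markers looked at, Fabp4 alone was tested, at 568.7 ± 30.8 CPM in WT and 536.4 ± 59.4 CPM in Vps13c-cKO (SD, n = 6 each). It was not called, and endothelial cells of the heart also express it. Of the 5 brown fat markers looked at, Dio2 alone was tested. Its log2 fold change was positive, at 0.41 ± 0.24 (SE, n = 6 each), and was not called (edgeR adjusted p = 0.309). Over the alternatives the log2 fold change of Dio2 ran from 0.19 to 0.58.

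Fitm2 (ENSMUSG00000048486, chromosome 2), a protein of the endoplasmic reticulum needed for droplets to bud towards the cytosol, fell in every Vps13c-cKO mouse. Its lowest, median and highest values were 239.6, 249.7 and 260.4 CPM in WT and 199.0, 217.5 and 239.4 CPM in Vps13c-cKO. The ranges met but did not overlap, as for 4.93% of all tested genes. The log2 fold change was -0.19 ± 0.04 (SE, n = 6 each; edgeR adjusted p = 0.00296). The muscle form Fitm1 was lower in mean, at 11.7 ± 1.22 and 10.2 ± 1.95 CPM (SD, n = 6 each), but its log2 fold change of -0.19 ± 0.11 (SE) was not called (edgeR adjusted p = 0.291). The Fitm2 to Fitm1 ratio differed by 0.02 on the log2 scale (SDs of 0.16 and 0.31, n = 6 each, exact permutation p = 0.916).

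Bscl2, which encodes seipin at the droplet neck, and Hilpda, which inhibits adipose triglyceride lipase under low oxygen, were not called. Bscl2 was at 8.77 ± 0.832 CPM in WT and 9.01 ± 0.750 CPM in Vps13c-cKO (SD, n = 6 each). Hilpda was at 2.15 ± 0.468 and 2.25 ± 0.325 CPM, and with a standard error of 0.17 its log2 fold change of 0.07 is imprecise. Without strand information, reads of Bscl2 and of the antisense gene Gng3, whose exons overlap 6.7% of it in GENCODE M21, cannot be told apart.

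Among the enzymes that make triglyceride, the first step was not called and the middle steps split. The glycerol 3-phosphate acyltransferase of mitochondria, Gpam, was at 334.4 ± 49.998 CPM in WT and 333.3 ± 22.6 CPM in Vps13c-cKO (SD, n = 6 each; log2 -0.01 ± 0.07 SE). Its counterparts of the endoplasmic reticulum had log2 fold changes of -0.22 ± 0.07 (SE) for Gpat3 and -0.11 ± 0.04 for Gpat4 (edgeR adjusted p = 0.0603 and 0.0875). Gpat3 was the uncalled member nearest to the threshold, and it was called without WT mouse 1 (edgeR adjusted p = 0.0324). An antisense gene overlaps 30.0% of its exon length.

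Of the 4 acyltransferases that turn lysophosphatidic into phosphatidic acid, Agpat3 fell and Agpat1 rose. Agpat3 (ENSMUSG00000001211, chromosome 10) ran from 155.6 over 171.6 to 196.3 CPM in WT and from 133.1 over 145.1 to 169.9 CPM in Vps13c-cKO. A single Vps13c-cKO mouse lay inside the WT range, and 2 WT mice lay inside that of Vps13c-cKO. Its log2 fold change was -0.23 ± 0.06 (SE, n = 6 each; edgeR adjusted p = 0.0117). Agpat1 (ENSMUSG00000034254, chromosome 17) ran from 32.8 over 35.4 to 38.2 CPM in WT and from 36.4 over 39.4 to 43.5 CPM in Vps13c-cKO. Of Vps13c-cKO, 1 mouse lay inside the WT range, and of WT, 3 mice inside the Vps13c-cKO range. Its log2 fold change of 0.17 ± 0.05 (SE, n = 6 each; edgeR adjusted p = 0.0441) was lost in 12 of the 20 other settings, among them the omission of WT mouse 2, 3 or 6 or of Vps13c-cKO mouse 1, 2, 3, 4 or 6 (edgeR adjusted p of 0.0595 to 0.113). Exons of the antisense neighbour Egfl8 overlap 3.4% of it. Agpat2, the form mutated in a human lipodystrophy, was at 0.18 ± 0.07 (SE; edgeR adjusted p = 0.134, and 0.0277 without WT mouse 5) and Agpat5 at -0.02 ± 0.08 (edgeR adjusted p = 0.918).

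Lipins remove the phosphate from phosphatidic acid to give diacylglycerol, and Lpin1 is the main form of muscle. Lpin1 (ENSMUSG00000020593, chromosome 12) ran from 230.6 over 270.9 to 323.2 CPM in WT and from 219.4 over 232.8 to 243.9 CPM in Vps13c-cKO. The Vps13c-cKO mice were close together, with a coefficient of variation of 4.21% against 12.3% in WT, and 4 of them lay inside the WT range, which 1 low WT mouse extended. The log2 fold change of Lpin1 was -0.27 ± 0.06 (SE, n = 6 each; edgeR adjusted p = 0.00586). The minor forms had positive values that were not called, 0.27 ± 0.11 (SE) for Lpin2 and 0.43 ± 0.16 for Lpin3 (edgeR adjusted p = 0.145 and 0.0970). These depended on single mice. Lpin3 was called at 0.62 without WT mouse 1 and at 0.51 without Vps13c-cKO mouse 2 (edgeR adjusted p = 0.00264 and 0.0425), and Lpin2 at 0.36 without WT mouse 6 (edgeR adjusted p = 0.0316). The Lpin2 to Lpin1 count ratio separated the genotypes, from -4.98 to -4.55 on the log2 scale in WT and from -4.54 to -3.91 in Vps13c-cKO. The difference was 0.53, with SDs of 0.15 and 0.23 (n = 6 each; two-sided exact permutation p = 0.00216, adjusted p = 0.00758), while Lpin1 stayed the far more abundant transcript. This ratio holds the fall of Lpin1 given above and was chosen with earlier results known, so it is no separate support for that fall.

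The last step, from diacylglycerol to triglyceride, was not called. Dgat2 ran from 249.4 over 269.2 to 282.0 CPM in WT and from 227.3 over 251.7 to 275.9 CPM in Vps13c-cKO, a log2 fold change of -0.10 ± 0.04 (SE, n = 6 each; edgeR adjusted p = 0.164). Dgat1, the other diacylglycerol acyltransferase, was at 13.5 ± 0.823 CPM and 13.9 ± 1.54 CPM (SD, n = 6 each). The Dgat2 to Dgat1 ratio differed by -0.14 on the log2 scale (SDs of 0.06 and 0.17, n = 6 each, exact permutation p = 0.0736, adjusted p = 0.129, and 0.0455 without Vps13c-cKO mouse 5). Mogat1, a monoacylglycerol acyltransferase, totalled 1 count over the WT mice and 4 over the others, and was not tested. The acyl-CoA synthetases Acsl3, which sits on nascent droplets, and Acsl4, which prefers arachidonic acid, had log2 fold changes of 0.26 ± 0.11 and -0.06 ± 0.06 (SE; edgeR adjusted p = 0.144 and 0.589).

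On the side of lipolysis, 2 of 6 tested members fell and 0 rose, beside 5.10% of all tested genes lower. Without WT mouse 2, without Vps13c-cKO mouse 1, or without both mice that held RNA of other tissues, 1 of the 6 fell, Aqp7. Pnpla2 (ENSMUSG00000025509, chromosome 7) encodes adipose triglyceride lipase, which takes the first fatty acid off triglyceride. It ran from 253.8 over 274.5 to 291.2 CPM in WT and from 202.3 over 249.8 to 256.8 CPM in Vps13c-cKO. The groups overlapped by 1 WT and 2 Vps13c-cKO mice. The log2 fold change was -0.18 ± 0.05 (SE, n = 6 each; edgeR adjusted p = 0.0237). It was no longer called without WT mouse 2 (edgeR adjusted p = 0.0630) or without Vps13c-cKO mouse 1, which held liver RNA (edgeR adjusted p = 0.0525). On chromosome 7, which carries Pnpla2, Lipe and Dgat2, 18.5% of 955 tested genes were called, and the part of this in the value of Pnpla2 was not tested.

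The partners of the lipase were not called. Abhd5, its coactivator, was at 40.4 ± 2.54 CPM in WT and 40.7 ± 2.89 CPM in Vps13c-cKO (SD, n = 6 each; log2 0.01 ± 0.05 SE). G0s2, its inhibitor, was at 10.9 ± 2.58 and 9.25 ± 1.53 CPM (log2 -0.24 ± 0.14 SE; edgeR adjusted p = 0.306). The Abhd5 to Pnpla2 ratio was higher by 0.19 on the log2 scale in Vps13c-cKO, with SDs of 0.10 in each group (n = 6 each; two-sided exact permutation p = 0.0130, adjusted p = 0.0303). Leaving out any of 5 mice (WT mouse 1, 2, 3 or 5, or Vps13c-cKO mouse 3) raised that exact permutation adjusted p to 0.0556. The G0s2 to Pnpla2 ratio differed by -0.03 (SDs of 0.31 and 0.23, n = 6 each, exact permutation p = 0.846), and the Lipe to Pnpla2 ratio by -0.03 (SDs of 0.18 and 0.11, exact permutation p = 0.760).

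The enzymes of the next steps had negative values that were not called. Lipe, hormone-sensitive lipase, was at 28.8 ± 4.06 CPM in WT and 24.8 ± 2.59 CPM in Vps13c-cKO (SD, n = 6 each; log2 -0.22 ± 0.08 SE; edgeR adjusted p = 0.107, and 0.0296 without WT mouse 6). Mgll, which splits the last monoacylglycerol, was at 127.2 ± 11.3 and 117.5 ± 4.97 CPM (log2 -0.11 ± 0.05 SE; edgeR adjusted p = 0.166). Pnpla3, a relative of the lipase known from liver, had 63 counts in WT and 38 in Vps13c-cKO and was not tested.

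Aqp7, the channel through which glycerol passes the membrane, had the largest change among the called members. Aqp7 (ENSMUSG00000028427, chromosome 4) ran from 40.9 over 44.0 to 50.3 CPM in WT and from 30.9 over 33.3 to 37.9 CPM in Vps13c-cKO. Every Vps13c-cKO mouse lay below every WT mouse. The genotypes lay apart in this way, in either direction, for 2 of the 29 tested members and 4.93% of all tested genes. The Vps13c-cKO mean of Aqp7 was 75.6% of that in WT. The log2 fold change was -0.40 ± 0.06 (SE, n = 6 each; edgeR adjusted p = 0.000158), and it stayed between -0.44 and -0.37 over the 20 other settings.

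**Figure D3:**
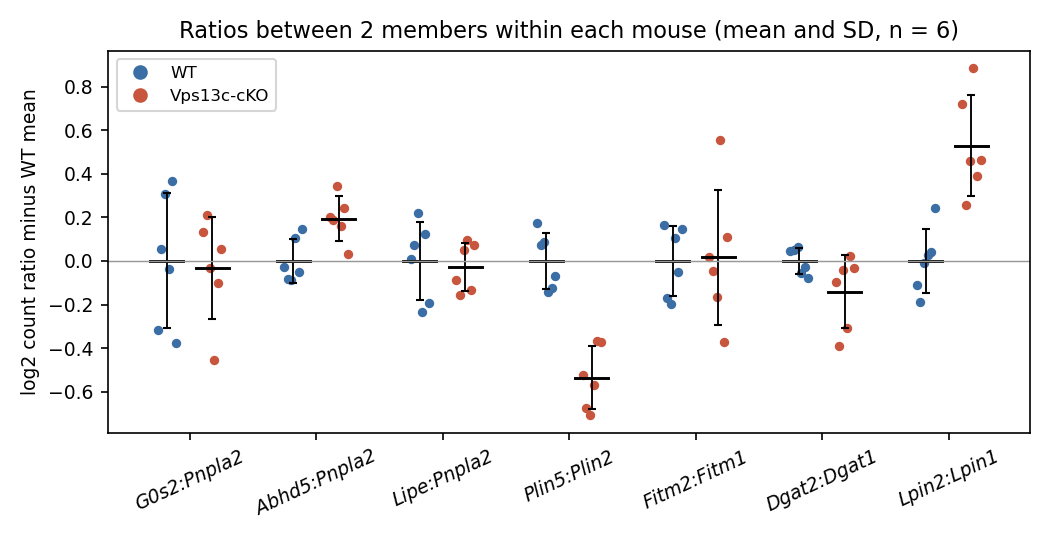
Log2 count ratio of 7 pairs of members in each mouse, centred on the WT mean, with mean and SD as bars. The Plin5 to Plin2 ratio is lower by 0.54 and the Lpin2 to Lpin1 ratio higher by 0.53 in Vps13c-cKO, both without overlap, whereas the Fitm2 to Fitm1 and G0s2 to Pnpla2 ratios overlap.

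Compared per kilobase of exon, lipolysis and the last esterification step led the order in WT. Pnpla2 stood at 90.4 ± 4.42 CPM per kilobase and Dgat2 at 87.0 ± 3.71 (SD, n = 6 each), and the ranges of these 2 overlapped. Fitm2 at 63.1 ± 1.74, Plin4 at 61.7 ± 8.45 and Gpam at 50.2 ± 7.50 CPM per kilobase followed, each overlapping its neighbour, then Plin5 at 43.4 ± 3.25 and Plin3 at 37.4 ± 2.29. Lpin1, Mgll and Agpat3 lay between 22.1 and 28.9 CPM per kilobase in mean, and Aqp7, Cidea and Plin2 between 14.8 and 15.8 with overlapping ranges. In all, 17 of 32 members reached 10 CPM per kilobase in WT, 4 lay under 1 (Lpin2, Pnpla3, Cidec and Mogat1), and 22 of 31 neighbouring pairs had overlapping ranges. In Vps13c-cKO the order was much the same, 16 members keeping their rank and none moving by more than 4 places. Aqp7 moved the farthest, from rank 11 to 15. Plin3 and Plin5 changed places, at 42.5 ± 3.33 and 36.01 ± 4.94 CPM per kilobase in Vps13c-cKO. Lengths are those of GENCODE M21, and the longest transcript in place of all exons raised Plin2 from 14.8 to 27.4 CPM per kilobase.

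**Figure D4:**
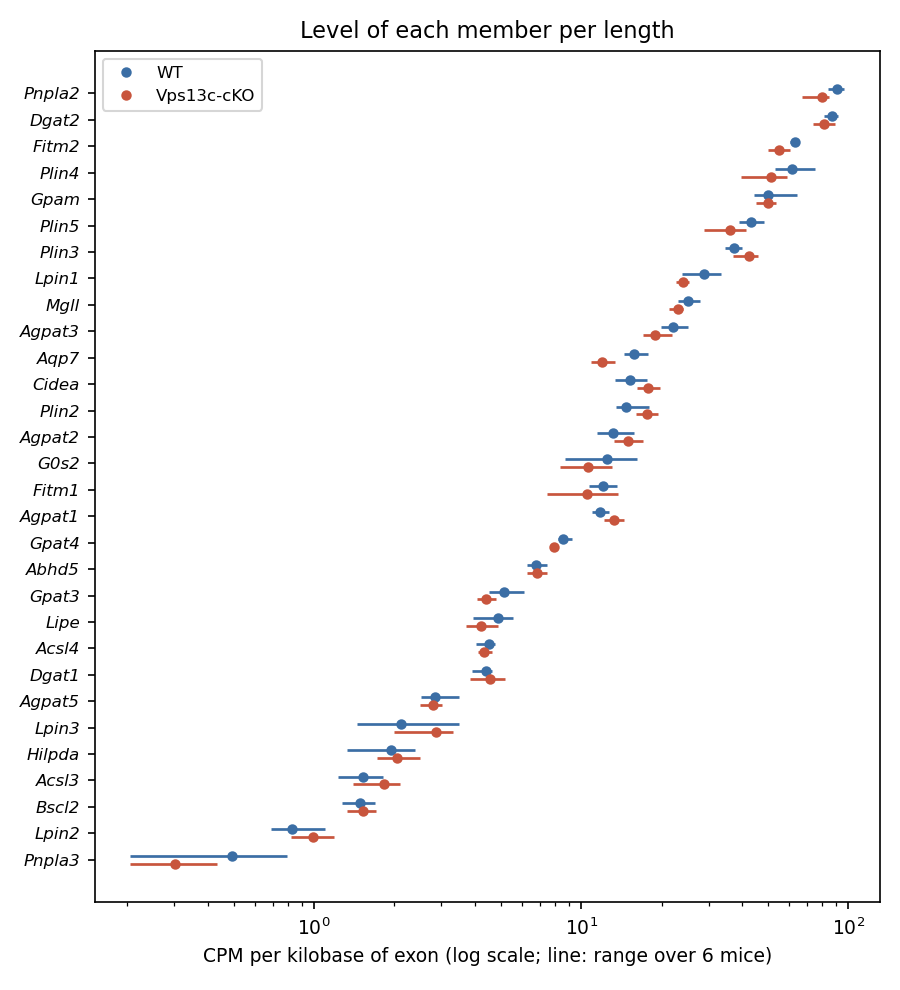
Level of 30 members per kilobase of exon on a log scale, with the mean as a point and the range over 6 mice as a line, WT and Vps13c-cKO side by side. Pnpla2 and Dgat2 lead at 90.4 and 87.0 CPM per kilobase in WT, and Cidec and Mogat1 are left out since some of their WT libraries held 0 counts.

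The heat map of all mice shows how far single animals shaped these values. Vps13c-cKO mouse 3 was the lowest of its group for 13 of the 29 tested members, among them 5 of the 7 that fell (Agpat3, Fitm2, Plin4, Plin5 and Pnpla2). Vps13c-cKO mouse 4 was the highest of its group for 3 of the 4 that rose (Cidea, Plin2 and Plin3). Without mouse 3, 3 members were called higher and 6 lower, and without mouse 4, 1 higher and 7 lower. Between mice of 1 genotype, the median coefficient of variation of the tested members was 9.72% in WT and 8.32% in Vps13c-cKO, beside 9.08% and 8.56% over all tested genes. Fitm2 varied least among the WT mice, at 2.76%, and Lpin3 most, at 34.0%.

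**Figure D5:**
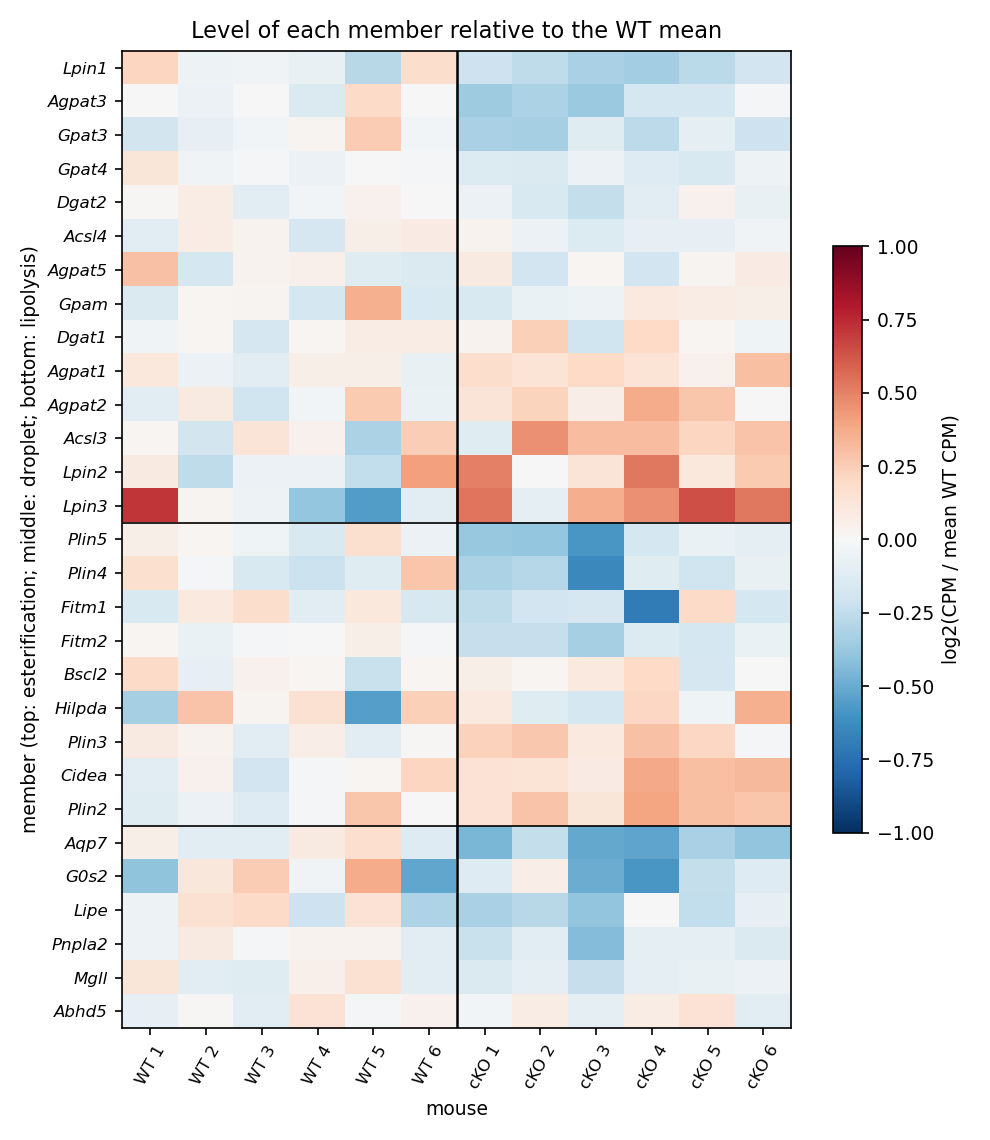
Log2 of each mouse's CPM over the WT mean for the 29 tested members, 6 WT mice on the left and 6 Vps13c-cKO mice on the right, red for higher and blue for lower. Aqp7 and Fitm2 are lower in each of the 6 Vps13c-cKO mice than in any WT mouse, while Plin4 and Plin5 are lowest in Vps13c-cKO mouse 3.

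Levels of other genes of the pathway place these members. On lists of related genes, 2 of 11 tested genes of esterification and secretion were called, beside 10.7% of all tested genes. Mttp, which loads triglyceride onto lipoproteins, was at 7.49 ± 0.729 CPM in WT and 11.1 ± 2.09 CPM in Vps13c-cKO (SD, n = 6 each). It rose by 0.57 ± 0.11 on the log2 scale (SE; edgeR adjusted p = 0.00209), and by 0.55 without the mouse that held liver RNA. Acsl1, the main acyl-CoA synthetase of the heart, fell by 0.16 ± 0.04 on the log2 scale. Of 18 other tested genes of droplet proteins and droplet traffic, 0 were called by edgeR, DESeq2 or limma-voom, each with 3 at an unadjusted p under 0.05. By edgeR these were Pcyt1a, Rab18 and Snap23, at log2 0.10, -0.08 and -0.09. Without WT mouse 1, edgeR called 1 of the 18 (adjusted p = 0.0447).

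Of 15 other tested genes of lipolysis and its signals, 3 were higher and 4 lower, beside 5.65% and 5.10% of all tested genes. Without both mice that held RNA of other tissues, without WT mouse 3, or without Vps13c-cKO mouse 5, it was 2 higher and 2 lower. Ces1d, a carboxylesterase with triglyceride lipase activity, fell without overlap, with 123.2 ± 6.52 CPM in WT and 87.8 ± 11.6 CPM in Vps13c-cKO (SD, n = 6 each), a log2 fold change of -0.49 ± 0.07 (SE; edgeR adjusted p = 3.48e-05). Prkg1, the kinase downstream of natriuretic peptides and cyclic GMP, rose without overlap, with 18.9 ± 0.893 CPM in WT and 23.8 ± 1.59 CPM in Vps13c-cKO (log2 0.33 ± 0.06 SE). The natriuretic peptide receptor gene Npr1 went the other way, at log2 -0.24 ± 0.07 (SE; edgeR adjusted p = 0.0313, and 0.0615 without WT mouse 4). The phosphodiesterases that end cyclic AMP signals went apart, Pde3a falling by 0.22 ± 0.05 on the log2 scale and Pde3b, on chromosome 7, rising by 0.64 ± 0.15.

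Of 9 tested genes of fatty acid supply, 5 fell and 1 rose, beside 5.10% of all tested genes lower and 5.65% higher. Of those that fell, Lpl, Cd36, Slc27a1 and Vldlr serve release or uptake of fatty acids, and Angptl4 restrains it. Lpl, which frees fatty acids from lipoproteins, was at 86.6% of its WT mean. Angptl4, which PPAR factors induce and whose product inhibits Lpl, had 21.9 ± 3.63 CPM in WT and 14.6 ± 3.09 CPM in Vps13c-cKO (SD, n = 6 each) and fell by 0.59 ± 0.12 on the log2 scale (SE; edgeR adjusted p = 0.00246). The fatty acid transporter gene Slc27a1 fell by 0.28 ± 0.06 on the log2 scale, and the lipoprotein receptor gene Lrp1 rose by 0.30 ± 0.04. On a list of PPAR targets, 9 of 19 tested genes fell and 0 rose, with a median log2 fold change of -0.18. This list shares Cd36, Fabp3 and Angptl4 with the list of fatty acid uptake. Some members are often named among PPAR targets too. No list of such members was fixed beforehand, so their directions were not counted. Of 14 regulators, 1 was called (7.14%, beside 10.7% of all tested genes), Ppargc1a at log2 -0.47 ± 0.07 (SE). Ppara itself was at -0.28 ± 0.10 (SE; edgeR adjusted p = 0.0784). Ppara was called without WT mouse 4, which held atrial RNA (log2 -0.37, edgeR adjusted p = 0.00427), and without both mice that stood apart (log2 -0.35, edgeR adjusted p = 0.0115). Without Vps13c-cKO mouse 6, 2 of the 14 were called.

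Some markers of heart cell types were called in the same hearts, beside 5.65% of all tested genes higher and 5.10% lower. Of 8 fibroblast markers 5 rose and 0 fell, with summed levels of 1621 to 1907 CPM in WT and 1866 to 2088 CPM in Vps13c-cKO. Of 8 macrophage markers 3 rose and 0 fell, at 229.5 to 316.2 and 290.7 to 346.2 CPM. Of the 10 cardiomyocyte markers 3 fell (Tnnt2, Tnni3 and Myl2) and 0 rose, at 61811 to 67793 and 59947 to 65053 CPM, and of 8 endothelial markers 1 fell (Cldn5). Of 6 tested markers of smooth muscle and pericytes, Myh11 rose and Pdgfrb and Rgs5 fell, at 1584 to 1892 and 1522 to 1580 CPM. Without both mice that held RNA of other tissues, Cldn5 (edgeR adjusted p = 0.0625) and Pdgfrb (0.0585) were not called, and 4 fibroblast and 4 macrophage markers were higher. Without WT mouse 6, 3 endothelial markers fell, and without Vps13c-cKO mouse 2, 1 fell and 1 rose. Without Vps13c-cKO mouse 4 or 6, 1 of the smooth muscle and pericyte markers fell and 0 rose. Counts of whole ventricle do not tell from which of these cells the reads of a member came. The part of these cells in the members' values was not tested.

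The letters around the start sites were searched for short motifs, as a description only. RefSeq windows (GRCm38.p6, 250 bases before to 50 after a start) were at hand for 27 members. The full PPAR element is AGGTCA repeated in the same direction with 1 base between. An exact match to it on either strand was in 0 of these members and in 0.0396% of all 32851 windows. A match this rare could hardly occur among 27 members, so the 0 does not tell whether they hold PPAR elements. The single arm AGGTCA, bound by many nuclear receptors and contained in the full element, was found in 8 of the 27 members (18.1% of all genes), and in 5 of the 10 called members with a window (Agpat1, Aqp7, Lpin1, Plin2 and Plin5). Without both mice that held RNA of other tissues, it was 4 of 8. Of the tested members with AGGTCA, 5 of 8 were called (62.5%), beside 10 of 24 tested members with a window (41.7%), and no test was made. The 27 members have 40 windows and all 27025 genes have 32851. Members thus had more windows per gene, and the shares of genes are not fully alike. The E-box CACGTG was in 5 of 27 members (8.09% of all genes), of which Plin2 was called. For 4 of the called members with AGGTCA, including the opposed pair Plin2 and Plin5, the 250 upstream bases are shown 5′ to 3′ on the gene's strand, which is the minus strand for all 4. Capitals mark AGGTCA or its reverse complement.
Plin2, chr4:86670060-86670309: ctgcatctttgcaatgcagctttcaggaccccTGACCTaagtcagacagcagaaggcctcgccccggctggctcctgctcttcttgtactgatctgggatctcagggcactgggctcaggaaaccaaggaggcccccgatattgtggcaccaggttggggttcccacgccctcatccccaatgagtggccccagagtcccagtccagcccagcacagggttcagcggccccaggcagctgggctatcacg
Plin5, chr17:56117549-56117798: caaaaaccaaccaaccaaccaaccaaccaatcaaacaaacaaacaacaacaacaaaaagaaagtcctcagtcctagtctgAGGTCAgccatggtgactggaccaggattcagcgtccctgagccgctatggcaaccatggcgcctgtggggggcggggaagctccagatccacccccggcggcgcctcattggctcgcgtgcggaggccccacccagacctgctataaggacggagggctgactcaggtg
Aqp7, chr4:41048137-41048386: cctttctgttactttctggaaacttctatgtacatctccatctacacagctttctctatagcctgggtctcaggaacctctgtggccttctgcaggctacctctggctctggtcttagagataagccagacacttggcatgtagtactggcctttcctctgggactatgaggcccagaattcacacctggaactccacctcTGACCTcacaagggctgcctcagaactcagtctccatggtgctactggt
Lpin1, chr12:16610967-16611216: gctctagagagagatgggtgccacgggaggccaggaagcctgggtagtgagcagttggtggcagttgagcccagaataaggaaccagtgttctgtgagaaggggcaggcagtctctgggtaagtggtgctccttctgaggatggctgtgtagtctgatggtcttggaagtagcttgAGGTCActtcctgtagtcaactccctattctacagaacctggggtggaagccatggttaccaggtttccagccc
In the windows shown, the match began at base -218 from the start in Plin2, -170 in Plin5, -49 in Aqp7 and -74 in Lpin1. Plin5 and Aqp7 each have 2 start windows in the table, of which 1 is shown. In the other, Plin5 had a match at base 14 after the start, and Aqp7 had one at -101 and, at -223, the same site as that shown. Plin2 rose and the other 3 fell, so the same letters stood before genes that moved in both directions. A match of 6 bases is a description of the letters and no measurement of binding.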

How the data were processed

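The authors deposited raw read counts, whole numbers per gene for each mouse, with no normalization per the file headers. For their making, the submitters' processing notes list HISAT2 2.1.0 and HTSeq 0.9.1 beside fastp 0.22.0, and the build GRCm39. No annotation release or strand setting was given in the sources used here, and reads of overlapping genes cannot be told apart. Counts are PCR reads without molecular identifiers. Gene symbols (21851 of 21959 IDs), lengths and chromosomes came from GENCODE M21 (build GRCm38). Groups and replicate numbers came from the sample titles. Within a genotype, no pair of mice agreed within sampling noise (chi-square of 3.11 to 5.62 per gene).

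The 12384 genes that passed filterByExpr entered the quasi-likelihood F test of edgeR 4.0.16 (R 4.3.3), two-sided, with TMM factors, and p-values were adjusted by Benjamini-Hochberg over them. A log2 fold change is positive where Vps13c-cKO was higher, and its standard error was computed from the F statistic. The code was tested on simulated counts, in which fewer genes were changed than were called here. There 12% of 1.15-fold and 56% of 1.25-fold changes were recovered. A gene that was not called may thus still differ. Ratios used log2 counts with a pseudocount of 0.5 and exact permutation of the 12 mice. All 32 members are named, with up to 4 genes of smallest p from each related list and some further called genes of these lists. The genes between Plin5 and Plin3, the liver genes and the single markers named were chosen after their values were seen. The members, lists and ratios were chosen with earlier results of these data known. Alternatives were other size factors, other filters, DESeq2 1.42.0, limma-voom (limma 3.58.1), the replicate number as a block, and leaving out each mouse.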

Additional observations from a re-analysis of the deposited data

Results flagged for a closer look

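Among the 29 tested members in each genotype, 58 groups of 6 mice were looked at for a single mouse far from the rest of its group. This was the case for 4 of them, all in WT, and chance alone flags about 1 in 20 groups. Plin2 was at 62.8 CPM in WT mouse 5, against 47.3 to 52.0 CPM in the other 5 WT mice. Without that mouse the log2 fold change of Plin2 was 0.32 (edgeR adjusted p = 0.000288) in place of 0.26, and the Plin5 to Plin2 difference was -0.56 in place of -0.54. Gpam was at 428.1 CPM in the same mouse, against 295.4 to 340.3 CPM in the others, and its log2 fold change without it was 0.08 (edgeR adjusted p = 0.387). Lpin3 was at 12.9 CPM in WT mouse 1, against 5.35 to 8.01 CPM in the other 5. Gpat4 was at 61.9 CPM in WT mouse 1, against 54.7 to 57.0 CPM, and without that mouse its log2 fold change was -0.09 (edgeR adjusted p = 0.185).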

How the results depend on the processing

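Over the 20 alternatives, 0 members were called in the opposite direction, and the called members kept their sign. Among members not called, the log2 fold changes of Gpam, Agpat5, Bscl2, Hilpda and Abhd5 took both signs. Of 579 recomputed values of single members, 533 kept their side of the threshold, 39 lost it and 7 gained it. The number of members called higher (4) was 2 without a filter, 2 by DESeq2 and 2 without both mice that held RNA of other tissues, an alternative chosen after seeing the data. Leaving out 1 mouse gave 1 to 4 members higher and 5 to 7 lower, and 2 to 4 ratios past the threshold. Agpat1, Cidea, Plin3, Plin4 and Pnpla2 each lost their call under more than 1 of these omissions. With the replicate number as a block, 3 members were higher and 8 lower: Agpat1 was lost (edgeR adjusted p = 0.0743) and Gpat3 called (edgeR adjusted p = 0.0421). Same-numbered mice were not paired by the labels, and their deviations correlated between -0.04 and 0.06, with 1 of 6 WT mice matching its own number best. By the longest transcript 19 members in place of 17 reached 10 CPM per kilobase. Hilpda, with 181 counts in each genotype, had a standard error of 0.17 on the log2 scale, so a shift of the size called for Plin3 or Fitm2 was not detectable there.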
